A study of Homo sapiens with 12 samples.

Results

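The IFIT family of antiviral RNA-binding proteins was followed in C4-2, a human prostate cancer cell line derived from LNCaP that grows without androgen. The members are the 4 genes IFIT1 (ENSG00000185745), IFIT2 (ENSG00000119922), IFIT3 (ENSG00000119917) and IFIT5 (ENSG00000152778), 4 of the 20308 genes in the expression table. They were found by matching the table's Ensembl identifiers to symbols, and all 4 passed the filter on low values. The family was picked because 3 members were among the largest rises in the same comparison, so the differences between the groups in these 4 genes are descriptions and carry no test. One group carried an ALKBH5 overexpression construct (oeALKBH5) and the other an empty vector (NC), with no other treatment in the labels. ALKBH5 encodes a demethylase that erases N6-methyladenosine (m6A), a base mark in RNA. The 12 libraries were 3 inputs of rRNA-depleted RNA and 3 immunoprecipitations with an m6A antibody (IP) for oeALKBH5, and as many of each for NC. Separate cultures are not stated for the replicates, and the p-values reflect the spread of these libraries alone, which may be technical. The labels do not name the plasmid or virus used, the way it was delivered or whether the cells were clones.

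IFIT proteins are built from tetratricopeptide repeats, helical units that fold into a groove or surface for binding RNA and proteins. Their genes are nearly silent in most resting cells and are switched on by interferons, or directly by virus-sensing pathways. IFIT1 binds the 5′ end of RNA whose cap lacks ribose methylation and blocks its translation. IFIT2 and IFIT3 form complexes with IFIT1, and IFIT3 stabilises IFIT1, while IFIT5 acts as a monomer and binds RNA with a 5′ phosphate.

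The input libraries summed to between 511333 and 524905 FPKM (fragments mapped to a gene, scaled to transcript length and library size). The absolute depth is unknown, and relative to NC replicate 1 the commonest ratio among low genes put the depths between 0.784 in oeALKBH5 replicate 2 and 1.13 in NC replicate 2. ALKBH5 RNA averaged 75.7 ± 4.05 FPKM in oeALKBH5 and 61.4 ± 3.39 FPKM in NC libraries (SD, n = 3 each), a difference that limma, fitted over all genes, did not call (adjusted p = 0.114). Prostate luminal markers were present, with all 10 tested and a summed level of 2366 to 2593 FPKM in oeALKBH5 and 2358 to 2392 FPKM in NC libraries. Of these, KRT8, a luminal keratin, rose to 223 ± 13.2 FPKM in oeALKBH5, against 137 ± 8.44 FPKM in NC libraries (SD, n = 3 each; limma adjusted p = 0.00242). Of 12 immune cell markers, MS4A1, NKG7, CLEC4C and LILRA4 were listed at 0 in all 6 libraries, and none of the 3 tested was called. The summed level of the 12 was 5.67 to 8.37 FPKM in oeALKBH5 and 0.521 to 4.28 FPKM in NC libraries. The pan-leukocyte gene PTPRC stood at 0.213, 0.29 and 0.456 FPKM in oeALKBH5 replicates 1 to 3, against 0.0668 FPKM in NC replicate 2 and 0 in the other NC libraries. The 8 fibroblast markers summed to 4.23 to 28.5 FPKM in oeALKBH5 and 4.05 to 13.1 FPKM in NC libraries, with DCN and LUM listed at 0 throughout. The part of such cells in the results below was not tested.

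IFIT1, IFIT2 and IFIT3 RNA was abundant in every oeALKBH5 library and scarce in every NC library, whereas IFIT5 differed much less. IFIT1, the cap sensor, stood at 122, 184 and 123 FPKM in oeALKBH5 replicates 1 to 3, against 2.01, 1.85 and 1.41 FPKM in NC replicates 1 to 3. The ratio of the group means was 81.4, and the lowest oeALKBH5 library was 60.6 times the highest NC library. IFIT2, a partner of IFIT1 that also promotes cell death when overproduced, stood at 78.4, 116 and 84.3 FPKM in oeALKBH5 libraries, against 4.39, 1.89 and 2.45 FPKM in NC libraries, a ratio of means of 31.9. IFIT3, the stabilising partner, stood at 45.6, 57.8 and 48.3 FPKM in oeALKBH5 libraries, against 1.94, 0.648 and 0.882 FPKM in NC libraries, a ratio of means of 43.7. In each of these 3 genes oeALKBH5 replicate 2 was the highest library. NC replicate 1 was the highest of the NC libraries in all 3. In these bulk samples, more cells with IFIT RNA and more IFIT RNA per cell cannot be told apart.

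IFIT5, the member that binds RNA with a 5′ phosphate, stood at 5.93, 8.42 and 7.33 FPKM in oeALKBH5 libraries, against 2.61, 1.71 and 3.12 FPKM in NC libraries. Its ratio of means was 2.91. The groups did not overlap in any of the 4 genes, as in 15.1% of the 12757 tested genes with oeALKBH5 higher and 13% with oeALKBH5 lower. Those shares are background only, since the genes were chosen on this difference.

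**Figure D1:**
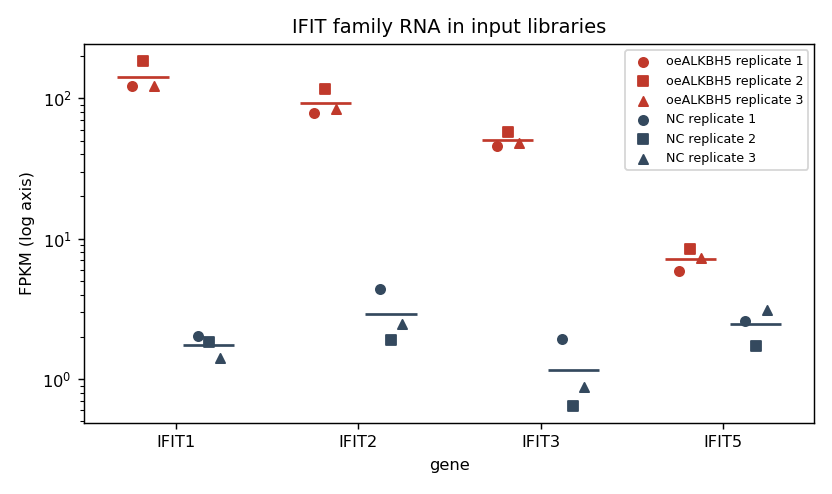
FPKM of each IFIT gene (log axis) in the 3 oeALKBH5 and 3 NC input libraries, with marker shapes for replicates and a line at each group mean. IFIT1, IFIT2 and IFIT3 stand between 45.6 and 184 FPKM in oeALKBH5 libraries and between 0.648 and 4.39 FPKM in NC libraries, while IFIT5 reaches at most 8.42 FPKM.

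On the log2(FPKM + 1) scale, where low genes change less than their ratios show, the difference (oeALKBH5 minus NC) was 5.69 for IFIT1, 4.62 for IFIT2, 4.62 for IFIT3 and 1.25 for IFIT5. Ordered by this difference, IFIT1 ranked 1, IFIT3 ranked 4 and IFIT2 ranked 5 of the 12757 tested genes, whose median was 0.02. IFIT5 ranked 198. Between IFIT1 and IFIT3 stood OASL (4.94) and RSAD2 (4.92), and just under IFIT2 stood CXCL10 (4.29). These ranks depend on the 1 added before the logarithm. With 0.1 added instead, RSAD2 (7.94) stood above IFIT1 (6.25). With 1 added again, each oeALKBH5 library was also set against the NC mean. The difference was 5.49 to 6.07 for IFIT1, 4.39 to 4.95 for IFIT2 and 4.48 to 4.82 for IFIT3. For IFIT5 it was at most 1.46, so the ranges of IFIT2 and IFIT3 overlapped and the others stood apart.

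**Figure D2:**
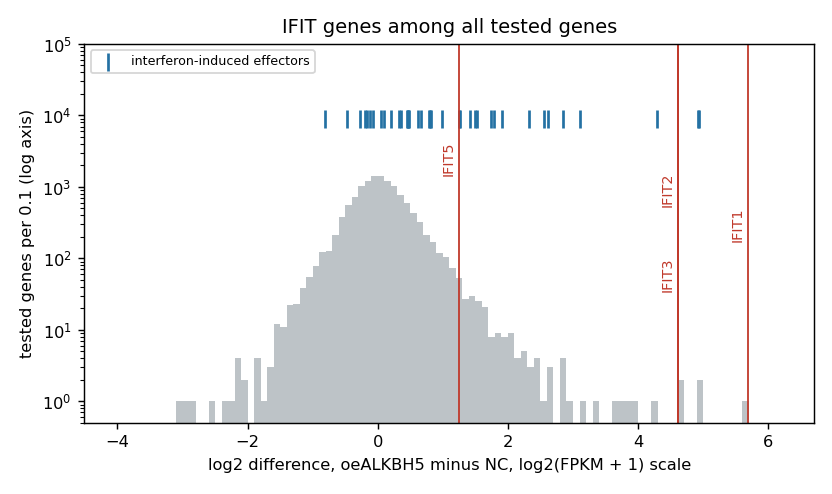
Number of tested genes per bin of log2 difference on the log2(FPKM + 1) scale (grey, log axis), with red lines at the IFIT genes and blue ticks at the tested interferon-induced effector genes. IFIT1 is at the far right with 5.69, IFIT2 and IFIT3 coincide at 4.62, and IFIT5 lies at 1.25.

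The make-up of the family's RNA also differed between the groups. Because FPKM is scaled to transcript length, levels of the members can be compared with each other. The 4 genes summed to 252, 366 and 263 FPKM in oeALKBH5 replicates 1 to 3, against 11, 6.1 and 7.86 FPKM in NC replicates 1 to 3. In oeALKBH5 libraries the order was IFIT1, IFIT2, IFIT3 and IFIT5 from high to low in all 3, and no range of one gene reached that of the next. IFIT1 was 48.5 ± 1.72% of the sum in oeALKBH5 and 22.2 ± 7.01% in NC libraries (SD, n = 3 each). IFIT2 was 31.6 ± 0.483% in oeALKBH5 and 34.1 ± 5.17% in NC libraries, and IFIT3 was 17.4 ± 1.41% in oeALKBH5 and 13.2 ± 3.94% in NC libraries. IFIT5 was 2.48 ± 0.269% in oeALKBH5 and 30.5 ± 8.2% in NC libraries. In NC libraries IFIT3 was the lowest of the 4 in each, but the other places changed: IFIT2 led in replicates 1 and 2, and IFIT5 led in replicate 3. All NC levels lay between 0.648 and 4.39 FPKM, and the ranges of neighbouring genes overlapped. IFIT1 exceeded IFIT2 by 1.56, 1.59 and 1.46 times in oeALKBH5 replicates 1 to 3, and stood at 0.458, 0.976 and 0.576 times IFIT2 in NC replicates 1 to 3.

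**Figure D3:**
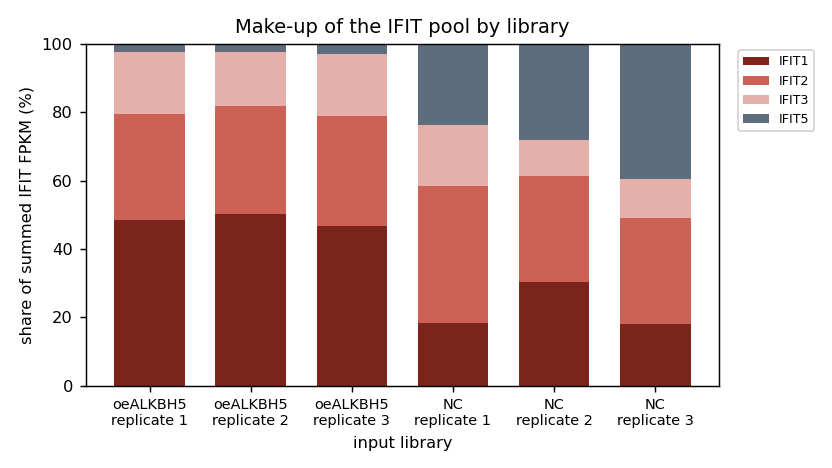
Share of each IFIT gene in the summed FPKM of the family, in percent, for each input library. The oeALKBH5 bars are alike, with IFIT1 at 46.8 to 50.2% and IFIT5 at 2.3 to 2.79%, whereas in the NC bars IFIT5 takes 23.8 to 39.7%.

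The fifth human gene of the family, IFIT1B, which lies between IFIT3 and IFIT1, was listed at 0 in all 6 input libraries. Reads that fit several of these related genes may have been divided among them by the authors' counting, in a way not given in the sources used here. In the RefSeq gene table LIPA, on the opposite strand, overlaps all 4 members. Although the library kit named in the labels keeps strand, whether the counting used it is not given. LIPA, which encodes lysosomal acid lipase, averaged 28.2 ± 1.08 FPKM in oeALKBH5 and 25.2 ± 2.62 FPKM in NC libraries (limma adjusted p = 0.509).

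No tested neighbour of the family on chromosome 10 was called. Of the 5 nearest protein-coding genes on each side, 7 were tested. With 5.45% of all tested genes called either way, 7 genes can hold no call without being unusual. On one side, LIPA is given above, FAS, a death receptor, averaged 2.89 ± 0.274 FPKM in oeALKBH5 and 1.8 ± 0.961 FPKM in NC libraries (limma adjusted p = 0.373), and ACTA2 and STAMBPL1 averaged under 1 FPKM in both groups. CH25H, an interferon-inducible enzyme that makes 25-hydroxycholesterol, was listed at 0 in all 6 libraries. On the other side, PANK1 averaged 4.16 ± 0.486 FPKM in oeALKBH5 and 5.96 ± 1.47 FPKM in NC libraries, the mitotic kinesin KIF20B 16.9 ± 6.44 and 23.2 ± 5.44 FPKM, and RPP30 18 ± 3.43 and 23 ± 0.841 FPKM, in the same order of groups (limma adjusted p = 0.351, 0.357 and 0.265). SLC16A12 and HTR7 were under the filter.

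The promoters of the members were read for the interferon-stimulated response element (ISRE), the site bound by interferon regulatory factors and by the interferon-activated complex that holds IRF9, since that element is known from interferon-induced genes. The RefSeq promoter table (build GRCh38.p14) held entries for IFIT1, IFIT3, which has 2 starts, and IFIT5, and none for IFIT2. The search covered the 250 bases before each start on both strands, for GAAA, any 2 bases and GAAA, a core that can overlap longer interferon motifs. The sequences below run 5′ to 3′ on the plus strand, with matches to the core, all on the minus strand and so printed as TTTC, 2 bases and TTTC, in capitals. They are shown so that the copies can be compared between the most and the least changed members. They are IFIT1 at chr10:89392373-89392622, the first start of IFIT3 at chr10:89327747-89327996 and IFIT5 at chr10:89414318-89414567.
IFIT1: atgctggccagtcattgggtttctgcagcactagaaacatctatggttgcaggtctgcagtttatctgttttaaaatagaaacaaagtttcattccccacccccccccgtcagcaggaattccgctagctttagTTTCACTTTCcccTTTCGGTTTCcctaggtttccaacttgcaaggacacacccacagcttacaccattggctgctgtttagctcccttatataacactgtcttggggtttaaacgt
IFIT3: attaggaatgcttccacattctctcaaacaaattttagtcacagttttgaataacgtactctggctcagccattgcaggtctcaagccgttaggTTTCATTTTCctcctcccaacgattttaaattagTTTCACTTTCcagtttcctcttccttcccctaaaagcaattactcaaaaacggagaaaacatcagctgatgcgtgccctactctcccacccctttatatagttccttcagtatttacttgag
IFIT5: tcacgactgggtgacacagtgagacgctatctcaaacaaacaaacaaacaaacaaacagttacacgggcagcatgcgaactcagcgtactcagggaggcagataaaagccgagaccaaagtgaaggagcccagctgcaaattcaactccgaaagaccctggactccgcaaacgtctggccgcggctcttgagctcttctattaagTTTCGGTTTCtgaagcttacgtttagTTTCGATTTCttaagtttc

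Each of the 3 held 2 copies of the core, as did the second start of IFIT3, while 0.225% of all 35116 promoter entries held 2 or more and 3.02% held at least 1. The promoter of IFIT1B held none. In IFIT1 the copies lay 116 to 107 and 103 to 94 bases before the start, and in IFIT3 156 to 147 and 122 to 113 bases before its first start. In IFIT5 they lay closer, 45 to 36 and 19 to 10 bases before the start, and the whole 300-base entry, which runs past the start, held 3. The copy of IFIT1 farther from the start and the copy of IFIT3 nearer to its first start had the same letters, TTTCACTTTC. TTTCGGTTTC occurred in both IFIT1 and IFIT5. The gamma-activated site TTCNNNGAA, present in 6.57% of all entries, was in none of these promoters, and the TATA box letters TATAAA, present in 10.7% on either strand, were found once, at the first start of IFIT3 on the minus strand. IFIT5, whose level differed least, held as many copies as IFIT1. Outside the family, limma called 8 of 31 tested genes with 2 or more copies higher (25.8%), 22 of 334 with at least 1 (6.59%) and 283 of 9817 with none (2.88%), as a description without a test. The interferon-induced effectors described next were left in these counts. Of the 36 effectors with a promoter entry, 21 held the core (58.3%), so the shares are not separate from the effector calls.

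Other interferon-induced effector genes rose with the IFIT genes, but most genes of a list of them did not pass the test. Of 44 listed genes outside the family, 43 were in the table and 38 were tested. Limma called 15 higher, 0 lower and left 23 uncalled at an adjusted p of 0.05, against 3.02% of all tested genes called higher, 2.43% lower and 5.45% either way. Among the called, RSAD2, OAS2, CXCL11 and TRIM22 averaged 0.03 to 0.11 FPKM in NC libraries and passed the filter only through oeALKBH5. Listed genes as low in NC that did not rise were left untested, so the share called depends partly on the filter. The median log2 difference of the 38 was 0.79, against 0.02 for all tested genes. The list was chosen with earlier results of these data known.

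OASL, a 2′-5′-oligoadenylate synthetase relative that enhances RIG-I signalling, stood at 80.8, 98.6 and 73.9 FPKM in oeALKBH5 replicates 1 to 3, against 2.15, 0.95 and 2.41 FPKM in NC replicates 1 to 3 (log2 difference 4.94, SE 0.24, limma adjusted p = 3.46e-05). RSAD2, which encodes the antiviral enzyme viperin, stood at 31.5, 38 and 23 FPKM in oeALKBH5 libraries, and in NC libraries was at 0.0893 FPKM in replicate 2 and listed at 0 in the others (limma adjusted p = 3.46e-05). Both were low or at 0 in every NC library. ISG15, a ubiquitin-like modifier, stood at 116, 182 and 124 FPKM in oeALKBH5 libraries, against 15.1, 13.4 and 17.3 FPKM in NC libraries (limma adjusted p = 4.18e-05). HERC5, the ligase that attaches ISG15 to proteins, stood at 24.5, 33.3 and 24.8 FPKM in oeALKBH5 libraries, against 2.76, 1.97 and 4.48 FPKM in NC libraries (limma adjusted p = 0.000744). ISG15 alone of these 4 was above 10 FPKM in NC libraries. The chemokine CXCL10 stood at 36.2, 76 and 46.2 FPKM in oeALKBH5 libraries, against 3.52, 0.934 and 1.06 FPKM in NC libraries (limma adjusted p = 0.000601). OAS2, which makes the activator of RNase L, stood at 4.45, 6.31 and 4.7 FPKM in oeALKBH5 libraries, and in NC libraries was at 0.13 FPKM in replicate 2 and listed at 0 in the others (limma adjusted p = 0.00215). The p-values of RSAD2 and OAS2 are descriptions, since both genes passed the filter only through oeALKBH5. The groups did not overlap in any of these 6 genes, which were named for their small p. In the list as a whole, 18 of the 38 tested had oeALKBH5 higher without overlap, against 15.1% of all tested genes. In all 6 named genes, as in the 4 IFIT genes, oeALKBH5 replicate 2 was the highest library.

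The 10 effector calls that held in every fit leaving out 1 library included all 6 of these. For RSAD2, OAS2 and CXCL11, which passed the filter only through oeALKBH5, this is a description too. The other 5 called effectors lost their call in at least 1 such fit. IFI44 lost it without NC replicate 3 (limma adjusted p = 0.0637). For CMPK2 the adjusted p was 0.0515 when oeALKBH5 replicate 1 was left out and 0.059 when oeALKBH5 replicate 3 was. TRIM22 lost it in all 6 fits, IFI6 in 5 and ISG20 in 4. Several effectors that are widely used as interferon markers were not called, and are named here after their values were seen. MX1, a GTPase against RNA viruses, stood at 1.56, 6.75 and 5.78 FPKM in oeALKBH5 libraries, against 0.768, 0.0907 and 4 FPKM in NC libraries (limma adjusted p = 0.263). IFI27, a mitochondrial protein, stood at 0.142, 12.1 and 1.16 FPKM in oeALKBH5 libraries, against 0, 0.781 and 1.31 FPKM in NC libraries (adjusted p = 0.506). USP18, which removes ISG15 and restrains interferon receptor signalling, stood at 7.05, 6.49 and 9.5 FPKM in oeALKBH5 libraries, against 11, 7.12 and 8.06 FPKM in NC libraries (adjusted p = 0.735). In these 3 genes the groups overlapped. Whether their difference between the groups is smaller than that of the IFIT genes was not tested.

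**Figure D4:**
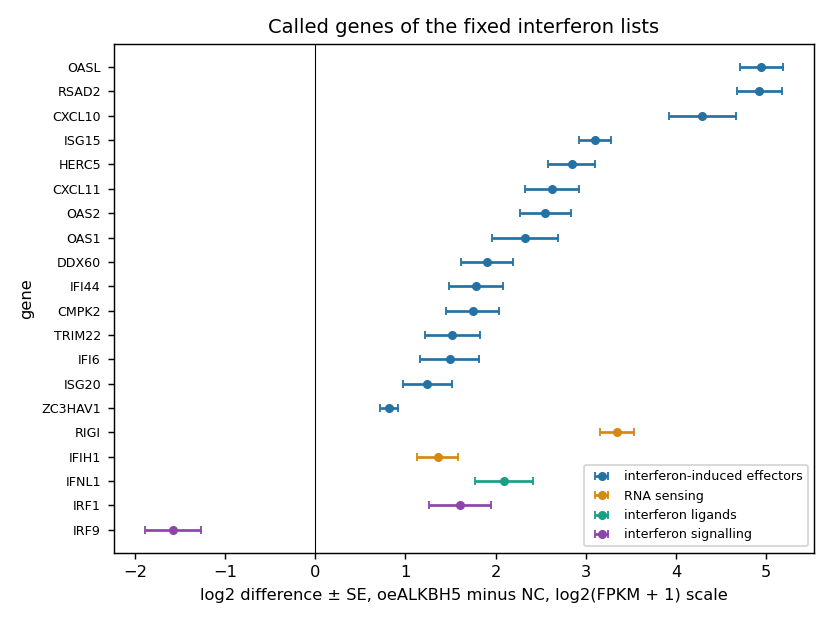
Log2 difference with its standard error, on the log2(FPKM + 1) scale, for the genes of the fixed interferon lists that limma called, coloured by list. OASL and RSAD2 lie near 4.9 and IRF9 lies below 0 at -1.58. The NC libraries listed IFNL1 at 0, so its position depends on the pseudocount.

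Among the genes that sense foreign RNA upstream of the IFIT genes, 2 of 14 tested were called higher and none lower, against 3.02% higher and 2.43% lower among all tested genes. RIGI, the helicase that detects RNA with a 5′ triphosphate, stood at 40.3, 45.8 and 39.7 FPKM in oeALKBH5 replicates 1 to 3, against 2.39, 3.63 and 3.75 FPKM in NC replicates 1 to 3 (log2 difference 3.35, SE 0.19, limma adjusted p = 4.18e-05). IFIH1, which encodes MDA5, a sensor of long double-stranded RNA, stood at 19.2, 18.9 and 14.5 FPKM in oeALKBH5 libraries, against 8.37, 5.9 and 4.73 FPKM in NC libraries (log2 difference 1.36, SE 0.23, limma adjusted p = 0.0134). IFIH1 was not called when oeALKBH5 replicate 1, oeALKBH5 replicate 2 or NC replicate 3 was left out, where its adjusted p was 0.0524, 0.0503 and 0.0551, in that order. The median log2 difference of the 14 was 0.08. The adaptor MAVS averaged 3.45 ± 0.432 FPKM in oeALKBH5 and 3.13 ± 1.01 FPKM in NC libraries (adjusted p = 0.821). IRF3, which can induce IFIT genes directly, stood at 41, 17.5 and 29.3 FPKM in oeALKBH5 libraries, against 43.9, 53.3 and 53.5 FPKM in NC libraries (adjusted p = 0.106). It passed the test only in the fit without oeALKBH5 replicate 1 (adjusted p = 0.0422).

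Of 17 tested genes of interferon reception and signalling, 1 was called higher and 1 lower, each 5.88% of the list against 3.02% higher and 2.43% lower among all tested genes, and 15 were not called, with a median log2 difference of 0. IRF1, a transcription factor that binds response elements of this kind, rose, with 7.07, 7.99 and 6.44 FPKM in oeALKBH5 libraries, against 3.35, 0.754 and 1.49 FPKM in NC libraries (log2 difference 1.61, SE 0.34, limma adjusted p = 0.0331). With 1 library left out, IRF1 kept its call only without NC replicate 1 and missed it in the other 5 fits, where the highest adjusted p was 0.12, without NC replicate 3. IRF9, the DNA-binding subunit of the complex that acts on the response element after interferon, fell, with 0.814, 2.02 and 1.78 FPKM in oeALKBH5 libraries, against 5.28, 8.75 and 5.59 FPKM in NC libraries (log2 difference -1.58, SE 0.31, limma adjusted p = 0.0235). IRF9 likewise kept its call only without oeALKBH5 replicate 2, and the highest adjusted p was 0.0849, without NC replicate 2. RNF31, which lies beside IRF9, stood at 6.89 FPKM in that NC library and at 21.0 to 28.7 FPKM in the others. The gene spans do not overlap in the RefSeq table, and whether reads were shared between them was not tested. STAT2, which joins IRF9 in that complex, averaged 23.3 ± 3.04 FPKM in oeALKBH5 and 19.9 ± 3.16 FPKM in NC libraries and was not called (limma adjusted p = 0.489).

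Interferon genes themselves were listed at 0 in every NC library. Of 21 interferon genes, 17 were at 0 in all 6 libraries, among them all 13 listed alpha interferons, IFNW1, IFNE, IFNK and IFNG. The 3 tested, IFNL1, IFNB1 and IFNL3, passed the filter on low values only through their oeALKBH5 values, and the other 18 were under it. An interferon gene could thus be tested only if it was higher in oeALKBH5, and the p-values below are descriptions. IFNL1, a type III interferon, stood at 4.94, 2.7 and 2.54 FPKM in oeALKBH5 replicates 1 to 3 and was called higher (limma adjusted p = 0.00977). IFNB1, the type I interferon that epithelial cells make first, stood at 0.507, 3.47 and 1.96 FPKM in oeALKBH5 libraries and was not called (adjusted p = 0.0945), but passed the test in the fit without oeALKBH5 replicate 1 (adjusted p = 0.0429). IFNL3 stood at 0.723, 2.98 and 0.933 FPKM in oeALKBH5 libraries (adjusted p = 0.112), and IFNL2, near-identical to it, at 1.67 FPKM in oeALKBH5 replicate 2 only. IFNLR1, the receptor subunit specific to type III interferon, was listed at 0 in all 6 libraries.

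Genes that act with IFIT proteins showed no calls. With 5.45% of all tested genes called either way, lists this short can hold none without being unusual. None of 6 genes of RNA cap formation and methylation passed the test, among them CMTR1, the enzyme that adds the ribose methyl group that hides RNA from IFIT1, at 22.6 ± 3.37 FPKM in oeALKBH5 and 17.2 ± 1.08 FPKM in NC libraries (limma adjusted p = 0.215). None of 6 tested genes for binding partners passed either. Among them was EIF3E, a subunit of the translation initiation factor that IFIT1 and IFIT2 bind. It stood at 379 ± 12.2 FPKM in oeALKBH5 and 336 ± 14.3 FPKM in NC libraries (limma adjusted p = 0.148). Without overlap of the groups, 2 cap genes and 3 partners had oeALKBH5 higher, against 15.1% of all tested genes. The reverse held for 1 partner and no cap gene, against 13% of all tested genes.

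By likeness of pattern, the genes nearest to IFIT1, IFIT2 and IFIT3 stood outside the interferon lists used above. Whether those nearest genes are themselves induced by interferon was not tested. The measure was Pearson's r of log2(FPKM + 1) over the 6 input libraries with the mean standardised profile of the 3 genes. Since the groups stand apart, r is high for any gene with a steady difference and says little about the size of that difference. The 10 nearest genes of at least 1 FPKM were SAMD5, TRAF5, B2M, DUSP5, GDF15, ITPRID2, PLA2G4D, TBX3, RAET1L and PLAAT4, with r between 0.9956 and 0.9995. B2M, the light chain of class I antigen-presenting molecules, averaged 532 ± 20.6 FPKM in oeALKBH5 and 339 ± 10.3 FPKM in NC libraries. TBX3, a developmental transcription factor, averaged 159 ± 1.84 FPKM in oeALKBH5 and 133 ± 0.643 FPKM in NC libraries. In all, 44 of 11967 genes had r of at least 0.99. The 5 nearest to IFIT5 were TNS1, SGK1, FBXO32, TM7SF2 and TNFRSF21, with r between 0.9937 and 0.9990. Between members, r was 0.9995 for IFIT2 and IFIT3, 0.9946 for IFIT1 and IFIT2 and 0.9951 for IFIT1 and IFIT3, and lay between 0.9462 and 0.9619 for each of them with IFIT5.

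The choice of the family did not use the IP lists, but it used input RNA, which was higher in oeALKBH5. More RNA and more m6A per RNA cannot be told apart in the lists, so they are not independent of that choice. The peak lists name no genes and are in build hg19, and no annotation of that build was used here. The stretch examined, 0.2 Mb of chromosome 10 from the 91 Mb mark, is where general knowledge of hg19 places the family, and it was chosen after the lists had been seen. In the RefSeq tables the family genes with a strand listed are on the plus strand. LIPA, which overlaps the members, and the adjoining SLC16A12 are on the minus strand. Peaks on the plus strand of this stretch are therefore described for the family's segment as a whole, and no peak was assigned to a gene.

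Peaks on that strand formed 8 regions between bases 91061706 and 91178753, and they were more numerous in the oeALKBH5 lists. The oeALKBH5 lists held 7, 8 and 7 peaks there in replicates 1 to 3, against 3, 4 and 3 in the NC lists. The whole lists held 16060, 11478 and 15052 peaks in oeALKBH5 and 11902, 11559 and 11619 in NC (two-sided exact permutation p = 0.4). The shortest list, that of oeALKBH5 replicate 2, had the most peaks in the segment. The peaks covered 10371, 10882 and 9865 bases in the oeALKBH5 lists, against 4704, 7074 and 3670 bases in the NC lists. The differences in peaks and in bases in the segment both gave p = 0.1 in a two-sided exact permutation test. That is the smallest p that 3 lists against 3 can give. It is a description only, since the segment was chosen after the lists were seen and the family for its input RNA.

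Regions 3 (chr10:91087579-91087835) and 5 (chr10:91143076-91144160) were in all 3 oeALKBH5 lists and in no NC list, a pattern of 0.978% of the 25666 joined regions of the series. The reverse pattern, found in 0.479% of them, did not occur in the segment. Regions 2 (chr10:91065719-91068966) and 6 (chr10:91162038-91164331) were in all 6 lists, as were 22.6% of all joined regions. Region 4 (chr10:91098418-91100725) was in all 3 oeALKBH5 lists and in NC replicates 1 and 2. Region 8 (chr10:91176962-91178753) was in all 3 oeALKBH5 lists and in NC replicate 2, and region 1 (chr10:91061706-91061885) in all 3 oeALKBH5 lists and in NC replicate 3. Region 7 (chr10:91174325-91174560) was in the list of oeALKBH5 replicate 2 alone. Thus 6 of the 8 regions were in more oeALKBH5 than NC lists and none in fewer, where 45.3% of all joined regions were in more.

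The strongest peaks of the segment stood near the top of the oeALKBH5 lists. The score is the authors' own and is used only to rank peaks within a list, and ranks from lists of different length are no measure of change. In each list 528 to 898 peaks tied at a score of 3100 and 23 to 38 scored higher, so peaks at 3100 have no rank among themselves. Region 6 had a score of 3100 in each oeALKBH5 list, above 94.2, 94.8 and 96.3% of the peaks of replicates 1 to 3, and scores of 149, 153 and 104 in the NC lists, above 39.6, 40 and 28.4% of their peaks. Region 2 lay above 94.2, 92.6 and 94.9% of the peaks in the oeALKBH5 lists and above 55.1, 52.7 and 24.6% in the NC lists. Region 4 lay above 94.2, 94.5 and 93% of the peaks in the oeALKBH5 lists, and above 24.7% in NC replicate 1 and 9.64% in NC replicate 2. Each place holds within its own list only. The region 6 peak spanned 2294, 2217 and 1870 bases in the oeALKBH5 lists, against 743, 1514 and 1609 bases in the NC lists. The control used in calling the peaks is not given in the sources used here. Input RNA of the family was higher in the same group, and more RNA and more m6A per RNA cannot be told apart in these lists.

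**Figure D5:**
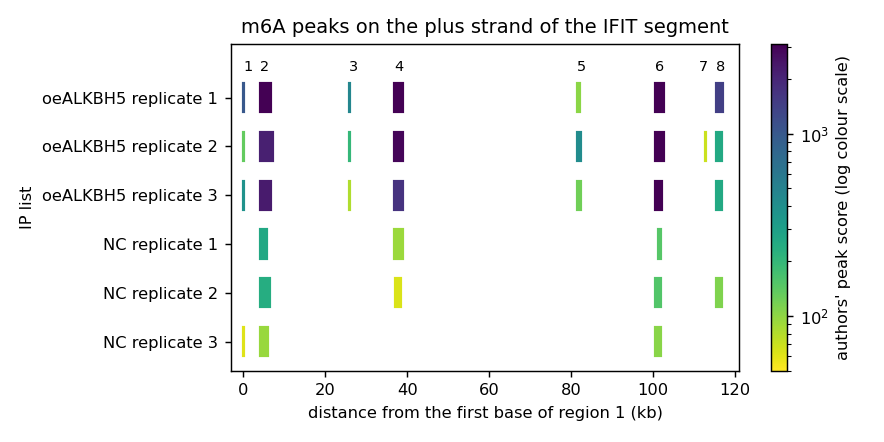
Plus-strand m6A peaks of the family's segment in each IP list, by distance in kb from the first base of region 1, coloured by the authors' score on a log colour scale and outlined so that short peaks show. The numbers 1 to 8 mark the joined regions. Regions 3 and 5 are in the oeALKBH5 lists only, and region 6 is at 3100 in all 3 of those lists.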

How the data were processed

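Groups of the C4-2 libraries follow the labels. The authors deposited expression values without a unit, taken here as FPKM because the submitters' processing notes name Cufflinks and Cuffdiff. The same notes name cutadapt 1.9.3, HISAT2 2.0.4 and hg19. The peak score was deposited by the authors in 1 list per IP library. The peak names in the files carry the name MACS, whose version and options are not given in the sources used here.

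Symbols came from a gene name table (19434 of 20308 genes). The 12757 genes whose 6 inputs averaged 0.5 FPKM or more were fitted as log2(FPKM + 1) with limma 3.58.1 in R 4.3.3 (intensity trend, Benjamini-Hochberg over all tested genes, threshold 0.05). The fit was also run on simulated data with independent normal noise, and the outcome is not used as support here. Same-strand peaks that shared 1 base or more were merged into regions. Other steps used scipy 1.17.1, numpy 2.4.6, pandas 2.3.3 and Python 3.11.15, and plots matplotlib 3.10.9. Alternatives covered the pseudocount, the filter, scaling, the trend, a replicate block and each library left out.

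The members, lists and the naming rule were chosen with earlier results of these data known. The rule named the members, ALKBH5, up to 6 called genes per list by smallest p with any called the other way, 5 protein-coding neighbours on each side, and the genes most alike in pattern. 2 of 142 listed genes were not matched in the table. The plan was to analyse the peaks only if gene positions in their build were at hand, and otherwise not at all. No hg19 annotation was used, so describing the segment as a whole departed from that plan. Depth per library is known only as a ratio, so no interval that needs counts was computed.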

Additional observations from a re-analysis of the deposited data

How the results depend on the processing

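The number of genes called by limma, 695 in the fit reported, was 421 with no filter on low values, 270 without the intensity trend and 232 to 436 when 1 library was left out. With the replicate number as a block it was 344. Same-numbered libraries did not deviate together (r = -0.017, -0.0205 and 0.0315 for replicates 1 to 3), and not every library correlated best with its own number, so the numbers were not taken to pair the samples. Under the block the effectors had 12 calls, without IFI6, TRIM22 and ISG20, and IRF1 was not called either (adjusted p = 0.068). The fixed lists together had 20 calls, 13 without NC replicate 3 and up to 18 in the other fits that left out 1 library. The effectors, with 15 calls, had 11 to 14 in those fits. They had 11 with no filter on low values, where IRF1 (adjusted p = 0.0882) and IRF9 (adjusted p = 0.0649) were not called. IRF1 was also not called without the trend (adjusted p = 0.0624).

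The 4 IFIT differences kept their sign in all alternatives. A smaller pseudocount enlarged them: with 0.1 they were 6.25 for IFIT1, 5.01 for IFIT2, 5.46 for IFIT3 and 1.53 for IFIT5, and with 0.5 they were 5.97 for IFIT1, 4.82 for IFIT2 and 5.02 for IFIT3. IFIT3 thus exceeded IFIT2 at these pseudocounts, while both were 4.62 at a pseudocount of 1. With 0.1, RSAD2 (7.94) exceeded IFIT1, and OASL (5.53) exceeded IFIT3. OAS2 (5.3), CXCL11 (5.24) and IFNL1 (5.06) then exceeded IFIT2, so the ranks given above hold for a pseudocount of 1. The excess of peaks in the segment, 4 per list, was 3.67 to 4.33 when 1 list was left out, a check added after seeing the data. A planned check kept only peaks at or above the median score of their list. It left 6, 6 and 5 peaks in oeALKBH5 replicates 1 to 3, against 1, 1 and 0 in NC replicates 1 to 3. The excess was then 5 per list (two-sided exact permutation p = 0.1, the smallest possible), a description as before. The planned check of overlap with annotated genes was not run. The absolute depth is unknown, so the counting error of the NC levels of the IFIT genes, all under 5 FPKM, could not be given.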
